A study of Mus musculus with 9 samples.

Results

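The 50 genes described here encode proteins that start, carry out and end mitosis. Among them are Cdk1 and its cyclins, the mitotic kinases, the spindle checkpoint, the kinetochore and the kinesins. The rest are the proteins of spindle assembly and cytokinesis, condensin and topoisomerase, and 4 proteins of chromatin, the nuclear envelope and other roles. The 50 were chosen by name, with earlier results of these data known. A gene counted as a member where a probe's RefSeq accession maps to its symbol. All 50 had at least 1 probe, 70 probes in all, among 20014 named genes on the array, and all 50 were among the 14504 genes bright enough to test.

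The series measured RNA of Subset II erythroblasts, the nucleated precursors of red cells, sorted out of bone marrow from C57BL/6J mice that the labels call WT (wild type) and female. It held 3 groups of 3 single-colour arrays: a normal diet (ND), a low iron diet for 3 weeks after weaning (LID_W_3w) and the same diet for 7 weeks after weaning (LID_W_7w). The title names iron deficiency anemia, and the design sets each time on low iron food against normal diet and the times against each other. The age of the normal diet mice, the gate behind Subset II and whether a sample was 1 mouse or a pool are not given in the sources used here. The 3 samples of a group were described as biological replicates.

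Several features of the arrays bear on every value below. Each group lay on a slide of its own, so slide and diet cannot be told apart. The 75th percentile of signal, to which each array was scaled, was 1499 to 1616 on normal diet, 1677 to 1837 at 3 weeks and 791.7 to 1087 at 7 weeks, where 45.2% to 53.6% of spots were well above background. Spike-in control probes lay above that percentile by a mean log2 of 0.47 to 1.73 on normal diet and 1.06 to 1.53 at 3 weeks. At 7 weeks it was 4.44 to 5.35, and the part of that difference in the results was not tested. The Y-linked gene Eif2s3y had a log2 level of 5.12 on normal diet array 1 and 4.82 on array 2, against -3.77 or lower on each of the other arrays, and Xist had -5.59 and -5.24 there, against -1.16 or higher elsewhere. Normal diet arrays 1 and 2 therefore went against the label female. Counts or medians of the members, of most roles at 7 weeks and of some other gene lists are given with and without them. So are the values of a few single members. The 12 erythroblast markers, led by Hbb-bt, Hba-a1 and Alas2, were well above background on all 9 arrays, and their log2 summed level was 11.07 to 11.18 on normal diet, 10.91 to 10.99 at 3 weeks and 11.38 to 12.01 at 7 weeks. Gene by gene, 6 of the 12 lay below normal diet at 7 weeks. The log2 fold changes of the 12 then ran from -1.81 to 0.93, with a median of 0.01.

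Mitosis begins when Cdk1, bound to an A or B type cyclin, phosphorylates proteins across the cell. Condensin and topoisomerase compact and untangle the chromosomes, kinetochores fasten them to spindle microtubules that kinesins sort and slide, and the spindle checkpoint holds back anaphase until every chromosome is attached. Erythroblasts divide several times while they fill with hemoglobin, then leave the cell cycle and expel the nucleus. Many genes of this set are transcribed late in the cell cycle through a CHR (cell cycle genes homology region) element bound by the DREAM and MuvB complexes, often with CCAAT boxes upstream bound by NF-Y.

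Those promoter elements were looked for because the members share a function and many of them moved together. In the RefSeq table of promoters (GRCm38.p6, 250 bases before to 50 after each start), 42 of the 50 members had an entry. A CHR core, TTTGAA or TTCGAA on either strand, stood in the promoter of 31 of them (73.8%), against 21.7% of all genes in that table and 17.9% of the genes tested here. A CCAAT on either strand stood in 32 (76.2%), against 41.1% and 43%, and a CHR core with a CCAAT at most 60 bases upstream in 21 (50%), against 2.41% and 2.44%. The S phase genes, which are switched on earlier in the cycle, had a CHR core in 9 of 41 (22%). The motifs overlapped in 1 member, Cdca8. Below are 8 windows of 170 bases, from 120 before to 50 after the start and read along the gene, with CHR cores and CCAAT boxes of either strand in capitals. Cdk1 and Ccnb2 show the driver of mitosis and a partner, Ttk, Hmmr, Kif11 and Top2a a kinase, a spindle gene, a motor and the topoisomerase that were lower at 7 weeks, Cdca8 a gene with both motifs that did not pass the test, and Nuf2 a gene that was lower and has neither.
Cdk1 (chr10:69352863-69353032, minus strand): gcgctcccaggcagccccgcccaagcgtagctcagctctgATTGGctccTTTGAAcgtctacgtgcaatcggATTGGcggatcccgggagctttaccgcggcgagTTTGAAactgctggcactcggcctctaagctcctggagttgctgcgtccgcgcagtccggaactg
Ccnb2 (chr9:70421505-70421674, minus strand): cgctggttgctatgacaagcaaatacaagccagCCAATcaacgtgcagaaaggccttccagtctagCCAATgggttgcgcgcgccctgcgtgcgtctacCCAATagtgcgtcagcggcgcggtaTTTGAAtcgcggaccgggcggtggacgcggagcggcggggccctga
Ttk (chr9:83834569-83834738, plus strand): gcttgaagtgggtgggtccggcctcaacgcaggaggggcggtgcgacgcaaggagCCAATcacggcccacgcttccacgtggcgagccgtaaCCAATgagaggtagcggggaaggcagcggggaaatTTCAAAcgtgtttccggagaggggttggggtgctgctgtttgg
Hmmr (chr11:40733388-40733557, minus strand): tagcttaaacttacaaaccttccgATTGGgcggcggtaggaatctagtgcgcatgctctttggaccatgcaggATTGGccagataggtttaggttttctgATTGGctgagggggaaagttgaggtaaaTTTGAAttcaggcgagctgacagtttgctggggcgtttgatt
Kif11 (chr19:37376262-37376431, plus strand): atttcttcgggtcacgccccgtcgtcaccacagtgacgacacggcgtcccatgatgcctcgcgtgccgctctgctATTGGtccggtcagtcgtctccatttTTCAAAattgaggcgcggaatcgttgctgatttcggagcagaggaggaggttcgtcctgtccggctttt
Top2a (chr11:99024140-99024309, minus strand): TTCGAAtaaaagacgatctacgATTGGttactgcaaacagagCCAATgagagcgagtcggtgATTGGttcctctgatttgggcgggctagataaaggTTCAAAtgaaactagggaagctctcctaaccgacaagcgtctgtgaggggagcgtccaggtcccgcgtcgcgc
Cdca8 (chr4:124936868-124937037, minus strand): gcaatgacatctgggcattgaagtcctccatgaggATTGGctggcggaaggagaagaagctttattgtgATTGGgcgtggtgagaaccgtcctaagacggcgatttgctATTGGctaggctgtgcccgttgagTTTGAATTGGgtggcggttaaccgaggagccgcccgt
Nuf2 (chr1:169531415-169531584, minus strand): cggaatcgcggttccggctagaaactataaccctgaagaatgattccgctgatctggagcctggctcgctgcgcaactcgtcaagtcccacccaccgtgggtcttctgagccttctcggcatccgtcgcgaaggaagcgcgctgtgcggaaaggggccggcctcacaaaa
In Cdk1, Ccnb2, Ttk, Hmmr, Kif11 and Top2a a CHR core lies near the start of transcription with CCAAT boxes ahead of it. The core stood in 21 of 28 members that were lower at 7 weeks (75%) and in 10 of 14 that did not pass the test (71.4%), so its presence did not separate them. A match of letters is a description of the sequence and does not show that a factor bound there.

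At 7 weeks of low iron diet most of these genes were lower than on normal diet, with all 6 mitotic kinases and all 5 genes of condensin and topoisomerase among them. Of the 50 members 34 were lower and 0 higher, where 18.7% of all 14504 genes were lower and 10.7% higher, 29.5% in either direction (limma, Benjamini-Hochberg adjusted p under 0.05 over all genes). Their median log2 fold change was -1.10, against -0.26 for all genes. The fall was at least 2-fold in 26 of the 34 and at least 4-fold in 11. The 3 arrays of the 7 week group all lay below the 3 of normal diet in 38 members, where 29.4% of all genes did so, and all lay above in 2, against 18.1% of all genes. At an unadjusted p under 0.05, 37 members were lower and 0 higher, against 27.2% and 15.9% of all genes, 43.1% in either direction. In bulk samples, fewer dividing cells and less RNA of these genes per cell cannot be told apart.

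Set against normal diet array 3 alone, whose sex-linked genes fit the label, 47 of the 50 members were below zero at 7 weeks, against 46 with all arrays, and the median was -1.16. The role medians then ran from -0.83 in the checkpoint and anaphase group to -2.10 in spindle assembly and cytokinesis, with -1.89 for the kinases, -1.60 for the kinesins, -1.46 for condensin and topoisomerase and -0.87 for the kinetochore group. Single members gave -1.34 for Cdk1 (adjusted p = 0.157), -4.23 for Ttk (adjusted p = 0.0697), -4.14 for Ndc80 (adjusted p = 0.06) and -4.44 for Cbx5 (adjusted p = 0.142). No member then passed the threshold, 30 had an unadjusted p under 0.05 and were lower, and limma called 1 of 14504 genes, with the lone array assumed to vary like the others. Leaving out 1 array changed the count most for normal diet array 1, without which it was 21, and array 3, without which it was 22. Of all genes 8.01% and 9.54% were lower in those 2 fits. With the scaling percentile taken over probes above background on all arrays, which raised the median of all genes from -0.26 to 0.05, 23 members were lower and 1 higher, and over all genes 1729 were lower and 2198 higher, against 2718 and 1559.

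At 3 weeks few members differed from normal diet. Cks1b, Tmpo and Birc5 were lower and 0 members were higher, where 7.88% of all genes were lower and 3.52% higher, 11.4% in either direction. The members' lower count, 3 of 50, lay near the share of all genes that were lower. At an unadjusted p under 0.05, 12 were lower and 6 higher, against 19.2% and 10.3% of all genes, 29.6% in either direction, and quantile normalization turned this to 1 lower and 12 higher. The median change of the members was -0.33 and that of all genes -0.17, but under quantile normalization the members' median turned to 0.26 against -0.02, with 12 members below zero in place of 35, and under cyclic loess to 0.19 against 0.03. Groups that did not overlap were seen in 22 members with 3 weeks lower and 8 with 3 weeks higher, against 31.6% and 18% of all genes. The counts past the threshold moved with the scaling. Quantile normalization gave 0 members lower and 7 higher, where 5.57% of all genes were lower and 4.24% higher. Cyclic loess gave 0 and 6, against 4.38% and 4.43% of all genes. The percentile over probes above background on all arrays gave 0 and 3, against 3.61% and 4.84%. Against normal diet array 3 alone the members' median was -0.45, with -1.04 for Cks1b, -0.99 for Tmpo and -0.86 for Birc5. Without any 1 normal diet or 3 week array the counts were 0 and 0. Over all genes 0.8% to 4.21% were lower and 0.448% to 1.61% higher in those fits. Without 7 week array 1 the counts were 6 and 2, against 15.9% and 8.26% of all genes.

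From 3 to 7 weeks of the diet, 27 members fell and 2 rose, where 19.6% of all genes fell and 17.5% rose, 37.2% in either direction. This comparison uses no normal diet level. The median change of the members was -0.87, against -0.13 for all genes, and the groups did not overlap in 31 members with 7 weeks lower, against 25.2% of all genes, and in 4 with 7 weeks higher, against 23.2%. At an unadjusted p under 0.05, 30 fell and 3 rose, against 25.3% and 22.1% of all genes, 47.4% in either direction. Under quantile normalization 42 fell and 0 rose, against 22.1% and 15.6% of all genes, and the median was -1.51 against -0.25 for all genes. The 7 week arrays enter this comparison and the one with normal diet alike, so the resemblance of their lists is not independent support.

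**Figure D1:**
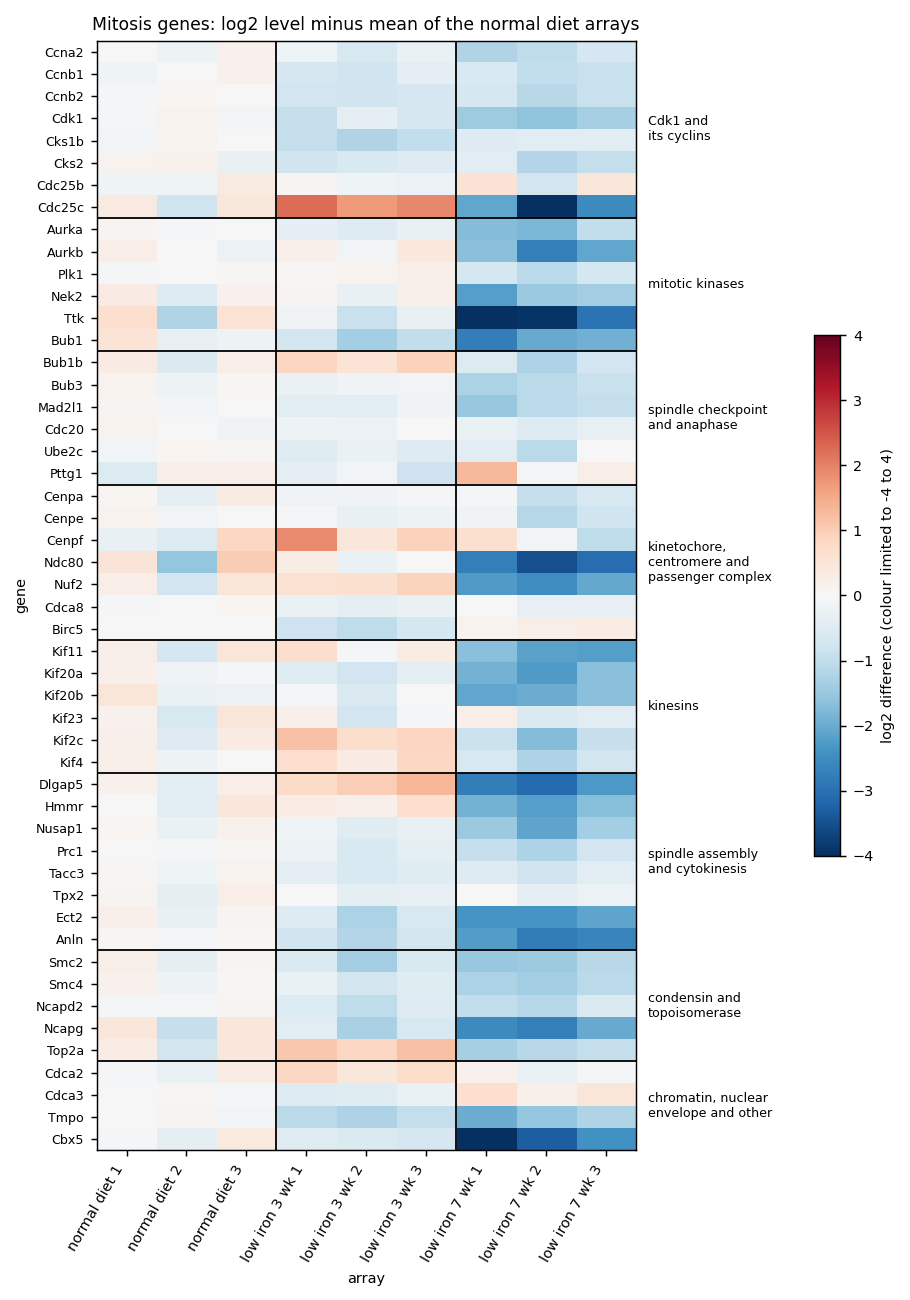
Colours give each member's log2 level on each of the 9 arrays minus its mean over the normal diet arrays, with genes in rows by role and blue for lower. The 7 week columns are blue in most rows, darkest in Ttk, Cbx5, Ndc80 and Cdc25c, while Birc5, Cdca3 and Pttg1 are not, and at 3 weeks Cdc25c is red.

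Among Cdk1 and its partners, 6 of 8 were lower at 7 weeks, with a median of -0.88. Cdk1, the kinase that drives entry into mitosis, had log2 levels of 6.95, 7.14 and 6.90 on normal diet, 6.05, 6.61 and 6.33 at 3 weeks and 5.58, 5.40 and 5.69 at 7 weeks. The 3 groups did not overlap, with 7 weeks lowest. Its log2 fold change against normal diet was -0.67 ± 0.25 at 3 weeks (± is the standard error of limma, adjusted p = 0.116) and -1.45 ± 0.25 at 7 weeks (adjusted p = 0.00558), a level 2.72-fold lower. Ccnb1, a B type cyclin that activates Cdk1, read 6.59, 6.74 and 6.92, then 6.09, 5.95 and 6.34, then 6.14, 5.75 and 5.86. Both low iron groups lay below normal diet and overlapped each other, and Ccnb1 passed at 7 weeks (-0.83 ± 0.25, adjusted p = 0.0364) but not at 3 weeks (-0.62 ± 0.25, adjusted p = 0.137). Ccnb2, the other B cyclin (-0.90 ± 0.24), Ccna2, the A type cyclin (-0.96 ± 0.27), and Cks2, a small subunit that binds Cdk1 (-0.86 ± 0.28, adjusted p = 0.048), were also lower at 7 weeks.

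Cks1b, the related Cdk-binding subunit, had its lowest levels at 3 weeks. It read 7.15, 7.40 and 7.26 on normal diet, 6.31, 6.07 and 6.27 at 3 weeks and 6.77, 6.81 and 6.81 at 7 weeks. The 7 week arrays lay between the other groups, with no overlap. Its change was -1.05 ± 0.23 at 3 weeks (adjusted p = 0.0245) and -0.47 ± 0.23 at 7 weeks (adjusted p = 0.143). The phosphatases that activate Cdk1 differed. Cdc25c read 1.15, 0.02 and 1.25 on normal diet, 3.04, 2.51 and 2.73 at 3 weeks and -1.28, -3.35 and -1.73 at 7 weeks, so all 3 week arrays were above and all 7 week arrays below normal diet. Cdc25c fell by 4.88 ± 0.55 from 3 to 7 weeks (29.5-fold, adjusted p = 0.000531) and lay below normal diet by then (-2.93 ± 0.55, adjusted p = 0.00674), while its 3 week value, 1.95 ± 0.55, missed the threshold (adjusted p = 0.0501). Cdc25b read 6.62, 6.62 and 7.16, then 6.91, 6.63 and 6.58, then 7.37, 6.03 and 7.26. Its groups overlapped throughout, with a change of 0.09 ± 0.38 at 7 weeks and a 95% interval of -0.78 to 0.95.

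All 6 mitotic kinases were lower at 7 weeks than on normal diet, with a median of -1.93, and all 6 were lower than at 3 weeks, with no overlap of the arrays in either comparison. Ttk, the kinase that starts the spindle checkpoint signal, read 1.54, -0.31 and 1.41 on normal diet, 0.74, -0.02 and 0.58 at 3 weeks and -3.33, -3.05 and -2.07 at 7 weeks. The 7 week arrays stood apart from the rest, normal diet array 2 lay with the lowest 3 week array, and 7 week array 1 was not well above background. The change was -3.70 ± 0.54 at 7 weeks (13-fold lower, adjusted p = 0.00326; -3.44 ± 0.58 without array 1) and -0.45 ± 0.54 at 3 weeks (adjusted p = 0.617). Bub1, a checkpoint kinase at the kinetochore (-2.24 ± 0.35), Aurkb, the kinase of the chromosomal passenger complex (-2.16 ± 0.33), and Nek2, a kinase of centrosome separation (-1.70 ± 0.34), fell by more than 3-fold. Aurka, which matures centrosomes and the spindle, changed by -1.51 ± 0.29, and Plk1, which acts throughout mitosis, by -0.83 ± 0.24. No kinase passed the threshold at 3 weeks, where their changes ran from -1.03 in Bub1 to 0.17 in Aurkb.

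In the spindle checkpoint and anaphase group, 2 of 6 were lower at 7 weeks, with a median of -0.68. Mad2l1, the checkpoint protein that captures Cdc20, changed by -1.18 ± 0.26 (adjusted p = 0.0115) and Bub3, the partner of Bub1, by -1.07 ± 0.24 (adjusted p = 0.0126). Bub1b, which encodes BubR1, was 0.77 ± 0.33 at 3 weeks (adjusted p = 0.155) and -0.85 ± 0.33 at 7 weeks (adjusted p = 0.0801), neither past the threshold, and fell by 1.63 ± 0.33 between them (adjusted p = 0.00554). Cdc20, the activator of the anaphase promoting complex, was -0.38 ± 0.24 at 7 weeks (adjusted p = 0.247), and Ube2c, the E2 enzyme of that complex, -0.51 ± 0.30 (adjusted p = 0.226). Pttg1, the securin that holds separase inactive, read 5.44, 6.28 and 6.27 on normal diet, 5.61, 5.88 and 5.18 at 3 weeks and 7.28, 5.92 and 6.25 at 7 weeks. Its 7 week arrays overlapped normal diet, with array 1 the highest of the 9, and the change was 0.49 ± 0.42 (adjusted p = 0.391, 95% interval -0.45 to 1.43).

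In the kinetochore, centromere and passenger group, 2 of 7 were lower at 7 weeks, both of them subunits of the NDC80 complex, the part of the kinetochore that grips microtubules. Ndc80 read 2.99, 0.90 and 3.49 on normal diet, 2.76, 2.20 and 2.47 at 3 weeks and -0.29, -1.07 and -0.58 at 7 weeks. Normal diet array 2 was well below its group, yet all 7 week arrays were lower still. The change was -3.11 ± 0.60 at 7 weeks (8.62-fold lower, adjusted p = 0.00734) and 0.02 ± 0.60 at 3 weeks. Nuf2, its partner, changed by -2.27 ± 0.35 at 7 weeks (4.81-fold lower, adjusted p = 0.00385). Cenpa, the histone that marks the centromere (-0.53 ± 0.31), Cenpe, a kinetochore motor (-0.69 ± 0.30), Cenpf, a large kinetochore protein (-0.16 ± 0.55), and Cdca8, borealin of the passenger complex (-0.21 ± 0.23), did not pass at 7 weeks.

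Birc5, which encodes survivin, another passenger protein, went the other way from 3 to 7 weeks. It read 7.91, 7.93 and 7.93 on normal diet, 7.10, 6.90 and 7.20 at 3 weeks and 8.07, 8.14 and 8.23 at 7 weeks. The 3 week arrays were the lowest and the 7 week arrays the highest, with no overlap between any groups. Birc5 was lower at 3 weeks (-0.85 ± 0.23, adjusted p = 0.0436), did not pass at 7 weeks (0.22 ± 0.23, adjusted p = 0.476) and rose by 1.08 ± 0.23 between them (adjusted p = 0.00647). That rise rests on the scaling and the probe, since quantile normalization gave -0.21 and the mean over the gene's 3 probes -0.02.

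Of the 6 kinesins 5 were lower at 7 weeks, with a median of -1.55, and the same count fell from 3 to 7 weeks. Kif11, the motor that pushes spindle poles apart, went from a log2 level of 4.53 ± 0.61 on normal diet (mean ± SD, n = 3) to 2.54 ± 0.29 at 7 weeks, a change of -1.99 ± 0.37 (3.98-fold lower, adjusted p = 0.0067). Kif20a, a motor of cytokinesis, changed by -1.94 ± 0.27 (adjusted p = 0.00266) and Kif20b, a related motor of abscission, by -1.92 ± 0.31 (adjusted p = 0.00429). Kif2c, which takes microtubule ends apart at the centromere, changed by -1.17 ± 0.35, and Kif4, a motor of chromosome arms and the central spindle, by -0.87 ± 0.28. Kif23, the motor of the central spindle complex centralspindlin, did not pass: its change was -0.26 ± 0.40 at 7 weeks with a 95% interval of -1.17 to 0.65, and its arrays overlapped in all groups. At 3 weeks 0 kinesins passed, with values from -0.54 in Kif20a to 0.92 in Kif2c.

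For spindle assembly and cytokinesis, 6 of 8 were lower at 7 weeks, with a median of -1.79. Dlgap5, which bundles spindle microtubules near chromosomes, read 4.87, 4.25 and 4.97 on normal diet, 5.45, 5.69 and 6.01 at 3 weeks and 1.94, 1.60 and 2.39 at 7 weeks. All 3 week arrays were above and all 7 week arrays below normal diet. The value at 3 weeks was 1.02 ± 0.32 (adjusted p = 0.0718), the change at 7 weeks -2.72 ± 0.32 (6.61-fold lower, adjusted p = 0.00198) and the fall between them 13.4-fold (-3.74 ± 0.32, adjusted p = 0.000389). Anln, anillin of the cleavage furrow, fell by 2.56 ± 0.26 at 7 weeks (adjusted p = 0.0013), Ect2, which switches on RhoA for cleavage, by 2.29 ± 0.29, Hmmr, a spindle pole protein, by 1.92 ± 0.31, Nusap1, which bundles microtubules, by 1.65 ± 0.29 and Prc1, the crosslinker of the central spindle, by 0.96 ± 0.25. Tacc3, which stabilises spindle fibres (-0.59 ± 0.24, adjusted p = 0.0943), and Tpx2, which nucleates microtubules and activates Aurka (-0.21 ± 0.28, adjusted p = 0.589), did not pass.

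All 5 genes of condensin and topoisomerase were lower at 7 weeks, with a median of -1.25 and no overlap with normal diet. Ncapg, a condensin I subunit, fell from 1.79 ± 0.79 to -0.64 ± 0.38 (mean ± SD, n = 3). Its change was -2.44 ± 0.43 (standard error of limma, adjusted p = 0.00579). Smc2 and Smc4, the ATPase arms of condensin, changed by -1.36 ± 0.31 and -1.25 ± 0.25, and Ncapd2, another subunit, by -0.90 ± 0.27. Top2a, the topoisomerase that untangles sister chromatids, read 4.38 ± 0.65 on normal diet, then 5.40 ± 0.18 at 3 weeks, then 3.26 ± 0.20 at 7 weeks (mean ± SD, n = 3). Its value of 1.02 ± 0.34 at 3 weeks did not pass (adjusted p = 0.0871), that of -1.12 ± 0.34 at 7 weeks did (adjusted p = 0.0384), and it fell by 2.14 ± 0.34 between them.

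The remaining 4 genes divided evenly. Tmpo, the lamina protein LAP2, read 8.04, 8.16 and 7.94 on normal diet, 6.97, 6.82 and 7.08 at 3 weeks and 6.07, 6.49 and 6.84 at 7 weeks. All low iron arrays lay below all normal diet arrays, with the 3 and 7 week arrays overlapping, and Tmpo was lower at 3 weeks (-1.09 ± 0.27, adjusted p = 0.0346) and at 7 weeks (-1.58 ± 0.27, adjusted p = 0.00512). Its dimmest probe had 0.90 at 3 weeks. Cbx5, the heterochromatin protein HP1 alpha, read 2.57, 2.23 and 3.01, then 2.12, 2.03 and 1.94, then -3.79, -0.69 and 0.17. The 7 week arrays were the lowest and the most scattered, and array 1 was not well above background there. The change of Cbx5 was -4.04 ± 0.84 (16.4-fold lower, adjusted p = 0.00973), and it was -2.86 ± 0.34 without array 1 (7.27-fold lower, adjusted p = 0.00189). Cdca3, a trigger of Wee1 degradation, read 6.78, 6.79 and 6.70, then 6.26, 6.28 and 6.48, then 7.43, 6.95 and 7.24. All its 7 week arrays were above the others, with a change of 0.45 ± 0.24 against normal diet (adjusted p = 0.184) and a rise of 0.87 ± 0.24 from 3 weeks (adjusted p = 0.0213) that quantile normalization turned to -0.18. Cdca2, a phosphatase anchor on chromatin, was 0.68 ± 0.27 at 3 weeks and -0.05 ± 0.27 at 7 weeks, neither past the threshold.

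**Figure D2:**
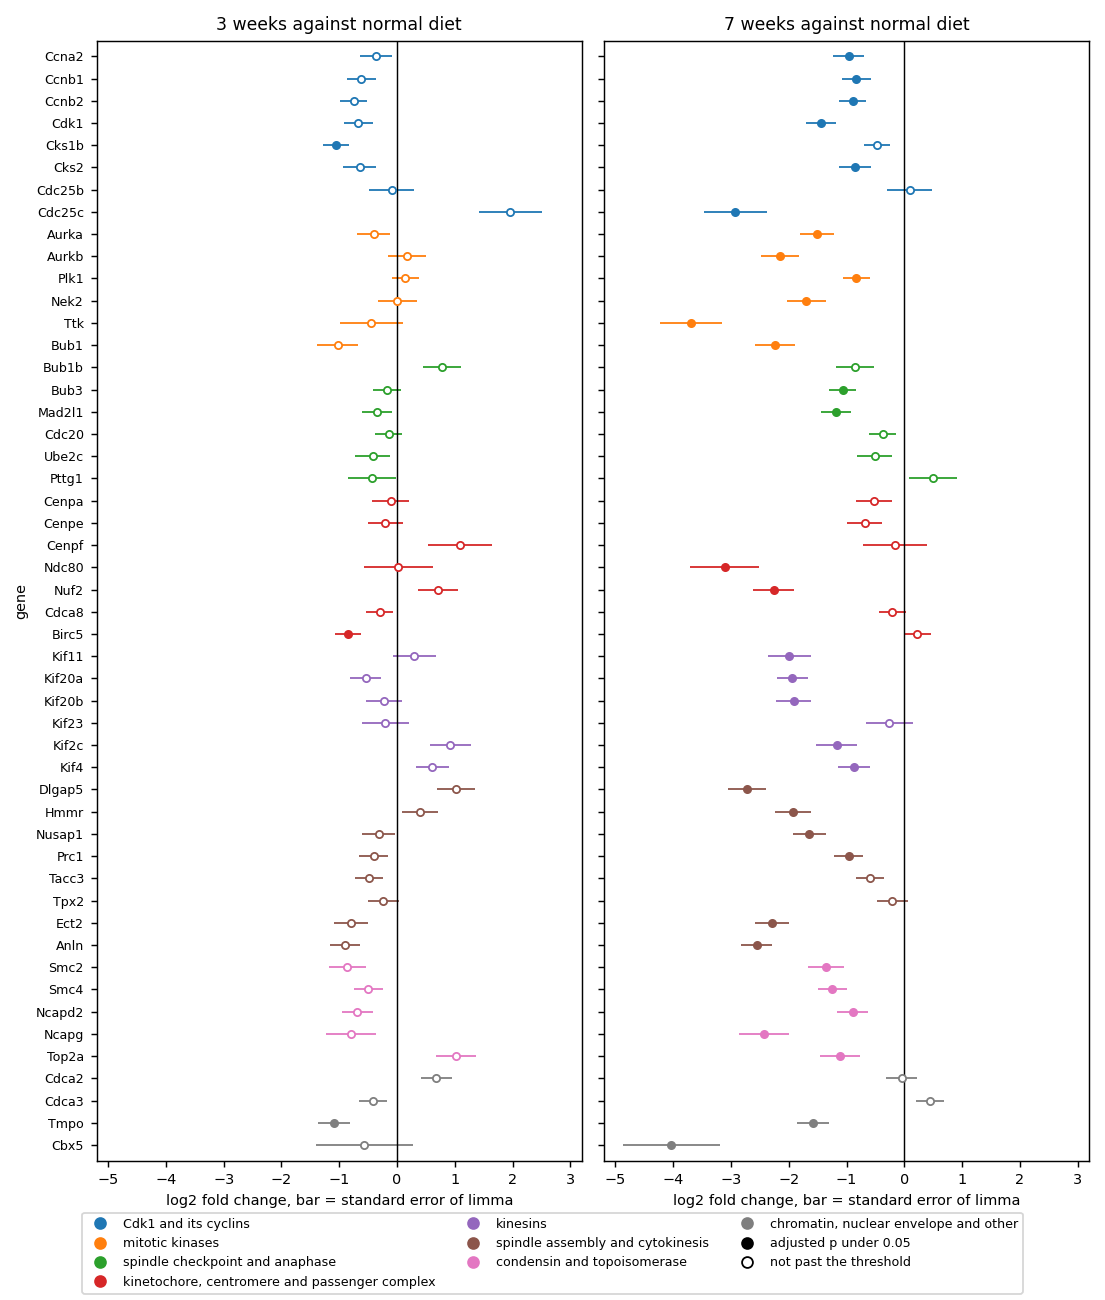
Points give each member's log2 fold change against normal diet at 3 weeks (left) and 7 weeks (right) with the standard error of limma, coloured by role and filled where the adjusted p was under 0.05. At 3 weeks 3 points are filled, all below zero, and at 7 weeks 34 are, with every kinase and every gene of condensin and topoisomerase among them.

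Set side by side at 7 weeks, lower members numbered 6 of 6 kinases, 5 of 6 kinesins, 5 of 5 condensin and topoisomerase genes and 2 of 7 kinetochore, centromere and passenger genes, and the medians were -1.93, -1.55, -1.25 and -0.53. From 3 to 7 weeks the counts were 6, 5, 3 and 2, with 1 kinetochore, centromere and passenger gene, Birc5, higher. The differences between roles were not tested. Beyond the members, 25 of 33 other kinetochore and centromere genes were lower.

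At 7 weeks the size of the change went with the probe's mean level over all 9 arrays. That level includes the 7 week arrays, so a fall at 7 weeks itself lowers it. The normal diet level alone was not used. Of 9 members with a mean log2 level under 3, 8 were lower at 7 weeks, against 17.2% of other genes there. Between 3 and 6 it was 13 of 18, against 26.8%, and at 6 or more 13 of 23, against 7.71%. Over the 50 members the 7 week change correlated with that level at Pearson r = 0.62 and Spearman rho = 0.55. Over the other 14454 genes the values were -0.02 and -0.03. For the 3 week change Pearson r was -0.49 over the members and -0.20 over the other genes. All points share the same 9 arrays, and genes are not independent. Among other genes at 6 or more, 20.4% were higher at 7 weeks, and their median was 0.26. Birc5 had the highest signal of the members, at a geometric mean of 41% of the scanner's saturation value, and 43 members were under 20%. The part of signal brightness in the smaller changes of bright members was not tested, and a probe's brightness says nothing of one gene's RNA against another's.

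**Figure D3:**
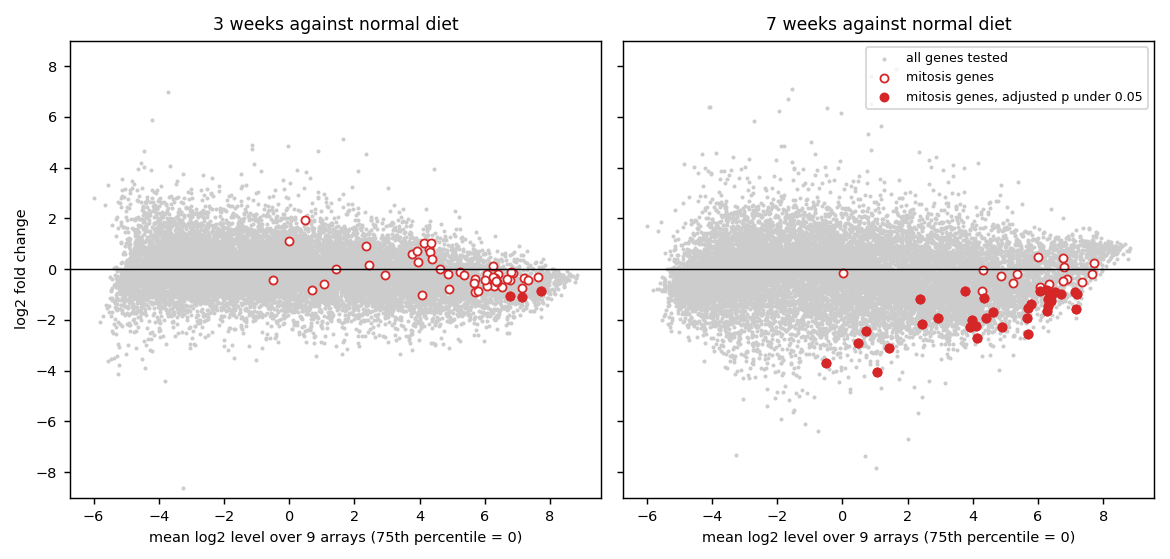
Each point is a gene, with its mean log2 level over the 9 arrays on the x axis and its log2 fold change against normal diet on the y axis, at 3 weeks (left) and 7 weeks (right); mitosis genes are red and filled where the adjusted p was under 0.05. At 7 weeks the filled points lie below zero at all levels, with the largest falls on the left, while at 3 weeks the members straddle zero.

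Members with several probes gave a check within the array. All 70 probes were tested, in a fit over 34486 probes, and at 7 weeks 48 were lower and 0 higher. The share of all 34486 probes called in that fit was not counted, so these counts stand without it. Of the 14 members with more than 1 probe, 12 had every probe below zero at 7 weeks, and Birc5 alone had both signs, with 0.22 for the brightest probe and -1.02 and -0.53 for the others. Cdk1's 3 probes gave -1.45, -1.72 and -1.80 at 7 weeks but -0.67, -0.09 and -2.07 at 3 weeks. Ccnb1's gave -0.83, -0.68 and -0.996 at 7 weeks. Pttg1's probes were both above zero at 7 weeks, at 0.49 and 0.15. Mad2l1 ranged more widely then, at -1.18, -3.11 and -4.39, and Tpx2's dimmer probe was lower (-1.36) where its brighter one did not pass. At 3 weeks 8 of the 14 members had probes of both signs, among them Ccnb1 (-0.62, 0.51 and 1.11) and Tpx2 (-0.24 and 1.46), so direction at 3 weeks depended on the probe. Of the 70 probes 6 were lower then and 3 higher, again without the share of all probes. The 3 were Cdc25c's probe (1.95) and the dimmer probes of Dlgap5 (1.11) and Tpx2. Probes of a gene can read different transcripts, and which of them do so was not tested.

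**Figure D4:**
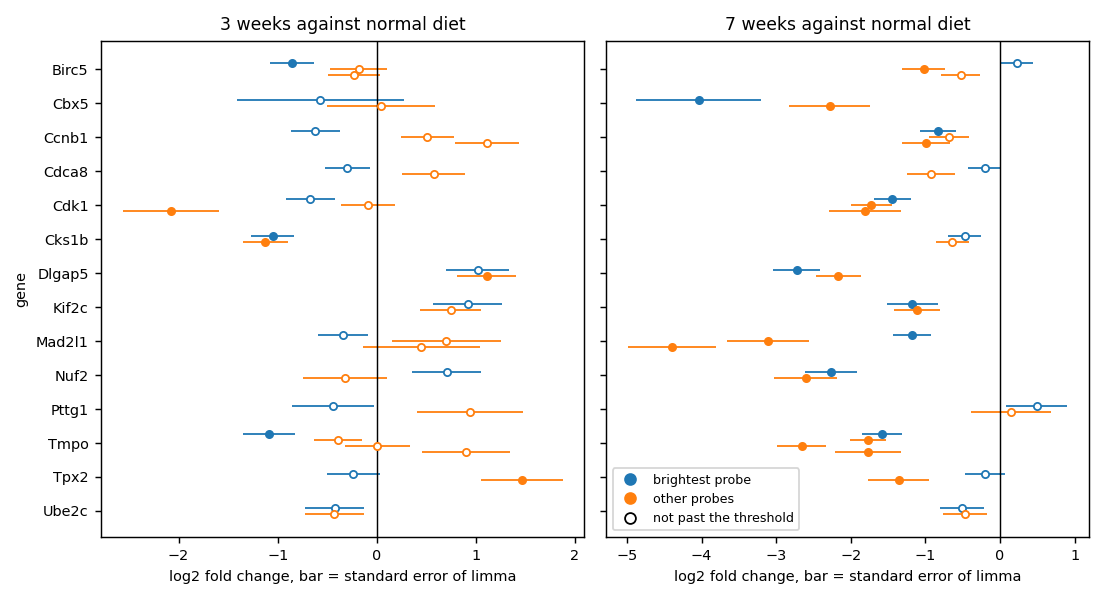
For the 14 members with several probes, points give the log2 fold change of each probe against normal diet with its standard error, blue for the brightest probe and orange for the others, filled where the adjusted p over all probes was under 0.05. At 7 weeks (right) all probes but those of Pttg1 and the brightest of Birc5 lie below zero, and at 3 weeks (left) many genes have probes on both sides.

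Other genes of mitosis, from 5 lists of 126 genes of which 122 were tested, were lower at 7 weeks in 69 cases and higher in 3, with a median of -1.24. Against normal diet array 3 alone 0 of the 122 passed, 109 were below zero and the median was -1.34. Of 33 other kinetochore and centromere genes, 25 were lower and 1 higher. The largest falls there were Ska3 (-3.33 ± 0.55), which tracks microtubule ends, Mis12 (-2.97 ± 0.39), a core kinetochore subunit, and Hjurp (-2.78 ± 0.67), the chaperone of Cenpa, and the gene that rose was Zwint (0.99 ± 0.27), an outer kinetochore protein. Of 30 other kinesins and spindle genes, 15 were lower and 0 higher. Troap (-2.73 ± 0.61), Kif18a (-2.55 ± 0.31), the motor that dampens chromosome oscillation, and Fam83d (-2.46 ± 0.26) led them. At an unadjusted p under 0.05, 18 of the 30 passed in either direction, against 43.1% of all genes. Condensin and cohesin genes were lower in 13 of 19, led by Esco2 (-3.17 ± 0.43), which acetylates cohesin. Espl1, the separase that cleaves cohesin, was higher at 3 weeks (1.40 ± 0.28, adjusted p = 0.0186), lower at 7 weeks (-0.95 ± 0.28, adjusted p = 0.032) and fell by 2.35 ± 0.28 between them.

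The list for the anaphase promoting complex, the ubiquitin ligase that ends mitosis, holds its subunits and also Fzr1, Ube2s and Fbxo5. Genes of that list were lower in 4 of 16 at 7 weeks and higher in 1, Anapc2 (0.73 ± 0.22), close to the 18.7% and 10.7% of all genes. The genes of mitotic entry and of its transcription factors were lower in 12 of 24 and higher in 1, Lin37 (1.90 ± 0.45). Wee1, the kinase that holds Cdk1 inactive, fell by 2.90 ± 0.33 and Lin54, the MuvB subunit that contacts the CHR element, by 2.72 ± 0.26. At 3 weeks 7 of these 24 were lower, against 7.88% of all genes, and 0 against normal diet array 3 alone. Melk changed by -1.71 ± 0.26, and Foxm1, the forkhead factor of late cell cycle genes, was among them. Foxm1 read 3.60, 3.67 and 4.0 on normal diet, 2.52, 1.91 and 2.54 at 3 weeks and 3.14, 3.1 and 3.67 at 7 weeks, with 3 weeks lowest (-1.44 ± 0.29, adjusted p = 0.0205) and 7 weeks overlapping normal diet (-0.45 ± 0.29, adjusted p = 0.264). Mybl2, the B-Myb that works with MuvB, was -1.47 ± 0.42 at 3 weeks (adjusted p = 0.0543) and -1.05 ± 0.42 at 7 weeks (adjusted p = 0.0889). Mki67, whose protein Ki-67 is the usual marker of dividing cells, was not among the lower genes: its change was -0.24 ± 0.24 at 3 weeks and 0.62 ± 0.24 at 7 weeks (adjusted p = 0.0738), and it rose by 0.87 ± 0.24 between them (adjusted p = 0.019).

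**Figure D5:**
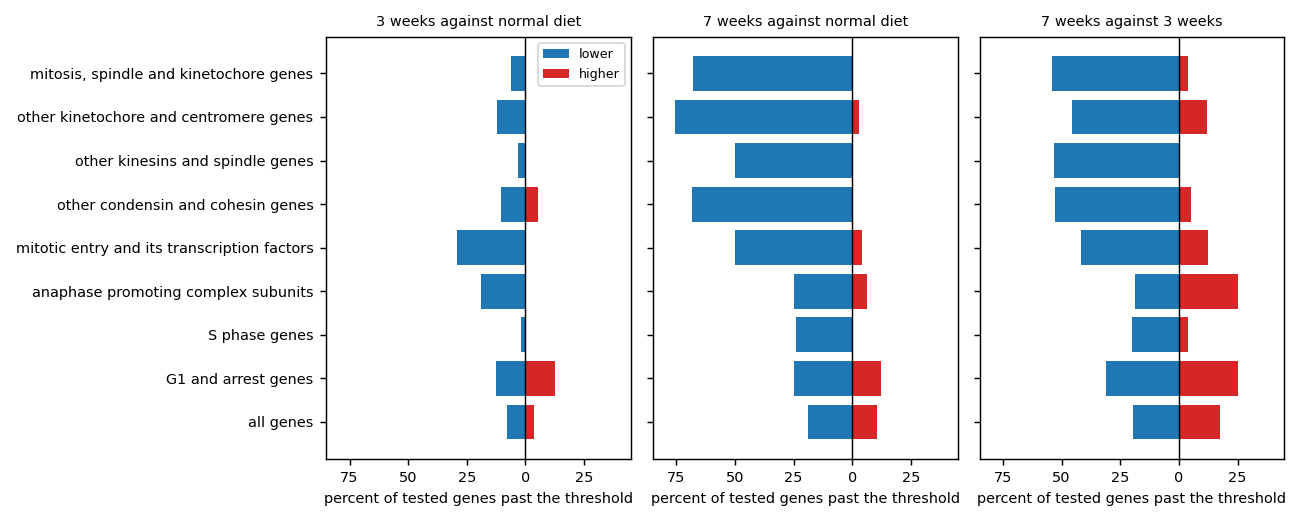
Bars give the percent of tested genes past the threshold in each list, lower to the left in blue and higher to the right in red, for the 3 comparisons, with all genes in the bottom bar. At 7 weeks against normal diet the other kinetochore genes (25 of 33 lower), the other condensin and cohesin genes (13 of 19) and the mitosis genes (34 of 50) reach furthest left, and the anaphase promoting complex (4 of 16) lies near all genes.

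Markers of other marrow cells moved with some of these comparisons, and their part in the results was not tested. The 15 neutrophil lineage markers, led by Csf3r, Camp and S100a9, had a log2 summed level of 8.87 to 9.88 on normal diet, 8.88 to 9.40 at 3 weeks and 9.19 to 9.79 at 7 weeks, ranges that overlap. Gene by gene, their median change was 0.79 at 3 weeks (2 higher, 0 lower) and -0.12 at 7 weeks (1 higher, 0 lower), and -1.38 from 3 to 7 weeks (5 lower, 2 higher). The 12 tested monocyte and macrophage markers, led by Vcam1, C1qa and C1qc, had 5.41 to 5.95, 6.16 to 6.64 and 4.70 to 5.01, highest at 3 weeks and lowest at 7 weeks. From 3 to 7 weeks 8 of the 12 fell, with a median of -2.10. The 8 tested markers of mast cells, basophils and eosinophils, led by Prg2, had 3.76 to 4.6, -0.39 to 4.63 and -0.57 to 0.43, and 3 of the 8 were well above background on each 7 week array. The 10 tested megakaryocyte and platelet markers had 4.67 to 5.91, 4.72 to 6.24 and 3.84 to 5.51, the 10 B lineage markers 3.08 to 3.76, 3.78 to 4.94 and 2.29 to 4.13, and the 10 T and NK cell markers 4.27 to 4.43, 4.23 to 4.90 and 4.52 to 5.52. All 50 members were well above background on every array but 7 week array 1, where Ttk and Cbx5 were not.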

How the data were processed

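Erythroblast RNA was purified on RNeasy columns, amplified with an amino allyl kit and labelled with Cy3, per the labels' protocols. Spot intensity came from Feature Extraction 10.7.3.1, per the file headers of the deposited scanner output; the processed signal is background-subtracted. The deposited series table holds log2 values for 34922 probes, centred on each probe's median (r of 0.997 to 0.999 with the scanner values, slopes 0.993 to 1; column medians 0, except -0.019 on 7 week array 2), and was an alternative; its normalization between arrays is not given in the sources used here.

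Control spots and outlier spots were left out. Processed signal was put on the log2 scale, lowered by its array's 75th percentile and averaged over spots of a probe. RefSeq accessions named 26407 of 55681 probes (table of GRCm38.p6). Probes well above background on all 3 arrays of a group were tested, and the brightest probe stood for a gene. The number of arrays limits the precision.

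One limma 3.58.1 model in R 4.3.3 (lmFit, eBayes, two-sided) over 9 arrays gave 3 contrasts, with Benjamini-Hochberg adjustment over 14504 genes and a threshold of 0.05. The procedure was tested on simulated data. Alternatives changed the normalization, background correction, filter, probe, arrays, weights and replicate block. Where a probe was not well above background anywhere in a group, the fold is a bound: the bright group's mean over the dim group's mean of, on each array, either its lowest well-detected signal or the probe's own signal, whichever is larger.

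Members and gene lists were chosen with earlier results of these data known. Values on every array are given for the 3 largest changes in each direction per comparison, for Cdk1 and Ccnb1 and for members against their role; other lists name up to 3 of the largest changes each way, besides Foxm1, Mybl2, Mki67 and Cdkn1a, and marker lists the brightest 3. Espl1, Wee1, Lin54 and Melk lie within that rule.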

Additional observations from a re-analysis of the deposited data

Results flagged for a closer look

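The effects of 3 and 7 weeks of low iron diet, each against the same normal diet arrays, differed in 29 of the 50 members by the test of the difference itself, the 7 against 3 week contrast of limma, where 37.2% of all genes passed. The log2 difference was -0.77 in Cdk1 and -4.88 in Cdc25c among Cdk1 and its partners. For the kinases it was -1.11 in Aurka, -2.33 in Aurkb, -0.97 in Plk1, -1.70 in Nek2, -3.25 in Ttk and -1.21 in Bub1. In the checkpoint it was -1.63 in Bub1b, -0.89 in Bub3 and -0.84 in Mad2l1. Among kinetochore and passenger genes it was -3.12 in Ndc80, -2.97 in Nuf2 and 1.08 in Birc5. The kinesins had -2.29 in Kif11, -1.40 in Kif20a, -1.70 in Kif20b, -2.09 in Kif2c and -1.49 in Kif4. Genes of the spindle and cytokinesis had -3.74 in Dlgap5, -2.32 in Hmmr, -1.33 in Nusap1, -1.49 in Ect2 and -1.65 in Anln. Condensin and topoisomerase genes had -0.75 in Smc4, -1.63 in Ncapg and -2.14 in Top2a, and the last group had 0.87 in Cdca3 and -3.47 in Cbx5. Birc5 and Cdca3 were the members with a positive difference. The 3 arrays of each group lay on 1 slide, and slide and time on the diet cannot be told apart.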

How the results depend on the processing

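At 3 weeks against normal diet, 3 members were lower and 0 higher. The lower and higher counts were 0 and 7 under quantile normalization, 0 and 6 under cyclic loess, 5 and 1 with normexp background correction of the median signal, 0 and 3 with the percentile over probes above background on all arrays, 1 lower with no filter on dim probes, 4 and 1 with only probes above background on all arrays, 1 lower with a gene's probes averaged, 2 and 1 in the deposited series table, 6 and 3 with only the 2 groups compared, 11 and 5 with array weights, and 0 and 0 without normal diet arrays 1 and 2. Leaving out each array in turn gave 0 to 6 lower and 0 to 2 higher; without any 1 normal diet or 3 week array the count was 0, without 7 week array 1 it was 6 and 2, and none of the 3 calls held in every such fit. At 7 weeks 34 were lower; the count was 23 lower and 1 higher with the percentile over probes above background on all arrays, 0 without normal diet arrays 1 and 2, and 21 to 35 when each array was left out, 21 without normal diet array 1 and 22 without array 3. In the other settings it was 24 to 37, and 21 of the 34 calls held whichever array was left out. From 3 to 7 weeks, 27 were lower and 2 higher; quantile normalization gave 42 and 0, cyclic loess 38 and 0, and the higher count was 1 with the mean over probes, the dimmest probe, only the 2 groups compared, and without normal diet arrays 1 and 2; leaving out each array gave 20 to 30 lower and 1 to 2 higher, and 20 of the 29 calls held in every fit. At 3 weeks 23 of the 50 members turned from below to above zero under quantile normalization, 19 under cyclic loess and 8 with the percentile over probes above background on all arrays. Among members past the threshold on either side, signs turned in Tmpo at 3 weeks (0.90 with the dimmest probe) and, from 3 to 7 weeks, under quantile normalization in Cdca8 (-1.01), Birc5 (-0.21) and Cdca3 (-0.18), with the mean over probes in Tpx2 (-1.40) and Birc5, 7 weeks against 3 weeks (-0.021), and with the dimmest probe in Cdk1 (0.27), Cdca8 (-1.49), Birc5 (-0.30) and Tpx2 (-2.82); the cause was not tested. At 3 weeks the split of all genes, 1143 lower and 510 higher, became 808 and 615 under quantile normalization, 635 and 643 under cyclic loess and 523 and 702 with the percentile over probes above background on all arrays, 2788 and 1627 with only the 2 groups compared and 3194 and 1768 with array weights. With no filter on dim probes, 2760 were lower and 4178 higher at 7 weeks. Without 7 week array 1 the split at 3 weeks was 2304 and 1198. The split at 7 weeks was 1162 and 576 without normal diet array 1, and 1384 and 764 without array 3. From 3 to 7 weeks it was 2844 and 2545, then 3211 and 2267 under quantile normalization and 3333 and 2183 under cyclic loess. The normexp setting and the dimmest probe were added after seeing the data; normexp on the mean signal was not run, as that column was not used here.

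Same-numbered arrays of different groups deviated together at r from -0.17 to 0.29. With 3 arrays a group, that does not settle whether the numbers pair the samples. With the replicate number as a block, 1 member was lower and 1 higher at 3 weeks and 33 were lower at 7 weeks. From 3 to 7 weeks 26 were lower and 2 higher in that fit. Weak signal limits Ttk and Cbx5 at 7 weeks, where array 1 was not well above background.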

Other observations

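Genes of DNA replication and of the G1 phase stand beside the mitosis genes as other parts of the cell cycle. Of 50 S phase genes, 12 were lower and 0 higher at 7 weeks against normal diet, where 18.7% of all genes were lower and 10.7% higher. The S phase median was -1.25, against -0.26. At an unadjusted p under 0.05, 21 of the 50 passed in either direction, close to the 43.1% of all genes. That share leaves out direction, and 48 of the 50 were below zero. The 7 week arrays all lay below normal diet in 28 of the 50 and all above in 0, against 29.4% and 18.1% of all genes. The largest falls were Ccne2, the cyclin of S phase entry (-3.65 ± 0.60), Pola2, a subunit of DNA polymerase alpha (-3.43 ± 0.81), and Cdc45, a part of the replicative helicase (-3.25 ± 0.58). At 3 weeks 1 was lower, Gins3 (-0.94 ± 0.26).

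Among 16 tested genes of G1 and cell cycle arrest, 4 were lower and 2 higher at 7 weeks, against 18.7% and 10.7% of all genes. Against normal diet array 3 alone, 0 genes of either list passed, and the medians were -1.16 for S phase and -0.51 for G1 and arrest. Cdkn1a, the Cdk inhibitor p21, had log2 levels of -1.87, -1.99 and -2.84 on normal diet, 1.30, 2.5 and -1.95 at 3 weeks and 5.10, 3.14 and 4.62 at 7 weeks. The 7 week arrays were all above the others, and 3 week array 3 lay within the normal diet range. Its change was 2.85 ± 1.01 at 3 weeks (adjusted p = 0.098) and 6.52 ± 1.01 at 7 weeks (adjusted p = 0.00384). Ccnd2, a D type cyclin, rose at both times, by 2.03 ± 0.31 (adjusted p = 0.00987) and 3.55 ± 0.31 (adjusted p = 0.000894), with no overlap between groups. Ccnd1, another D type cyclin, was not well above background on any 7 week array, where it was at least 2.59-fold lower than on normal diet (adjusted p = 0.00115).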
